A study of Mus musculus with 6 samples.

Results

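The genes described are 8 members of the cholesterol synthesis pathway, chosen by name as Hmgcs1, Idi1, Sqle, Insig1, Fdps, Fdft1, Srebf2 and Lss. The choice was made with earlier results of these data known. A probe was taken as a member's probe where its RefSeq accession names that gene. All 8 genes were on the array, among 22911 genes with a symbol, and had 11 probes between them. The cells were C5aR+ LysoDCs, lysozyme-expressing mononuclear phagocytes of the mouse Peyer's patch that carry the receptor for the complement fragment C5a. They were enriched with CD11c microbeads, sorted, and cultured with CSF-1 and a factor that the labels spell CFS-2. One group of 3 samples had no C5a (0 nM), and the other group of 3 had recombinant C5a at 100 nM for 3 h. The mice's strain, genotype and age, and the culture time of the untreated samples, are not given in the sources used here. Nothing in the labels says that replicates came from separate animals or sorts, so the spread behind each p value is that between these samples and may be technical.

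Cholesterol is built from acetyl-CoA through mevalonate. Hmgcs1 makes HMG-CoA, Idi1 interconverts the isoprenoid building blocks, Fdps joins them into farnesyl diphosphate, Fdft1 makes squalene, Sqle oxidises it, and Lss closes the sterol ring. Srebf2 encodes SREBP-2, the transcription factor that drives these enzyme genes when sterols are scarce, and Insig1 encodes an endoplasmic reticulum protein that holds SREBP-2 back when sterols are plentiful. Insig1 and Srebf2 are themselves SREBP-2 targets. None of the 8 members acts in cholesterol uptake, so uptake was read from a further list of pathway genes.

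RefSeq promoters (build GRCm38.p6) were found for 5 of the 8 members, Hmgcs1, Idi1, Insig1, Srebf2 and Lss. The 250 bases before the start site are shown for Hmgcs1, the member measured on every array, for Idi1, another member with enough signal to test, and for Srebf2, the gene of the regulator. Capitals mark matches, on either strand, to TCACNCCA, the core of the sterol regulatory element, and to CCAAT, the box bound by NF-Y, which works beside SREBP-2.
Hmgcs1, chr13:119690101-119690350 (+ strand): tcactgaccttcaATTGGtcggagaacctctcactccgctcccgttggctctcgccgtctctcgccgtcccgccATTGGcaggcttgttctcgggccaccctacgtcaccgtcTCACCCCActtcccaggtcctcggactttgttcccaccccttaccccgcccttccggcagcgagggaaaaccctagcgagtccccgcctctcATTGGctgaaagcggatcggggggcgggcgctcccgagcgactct
Idi1, chr13:8885356-8885605 (+ strand): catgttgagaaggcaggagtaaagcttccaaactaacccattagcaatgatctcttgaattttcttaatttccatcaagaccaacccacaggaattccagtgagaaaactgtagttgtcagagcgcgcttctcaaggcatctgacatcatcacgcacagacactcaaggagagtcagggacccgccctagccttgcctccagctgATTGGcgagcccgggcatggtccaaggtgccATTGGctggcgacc
Srebf2, chr15:82147019-82147268 (+ strand): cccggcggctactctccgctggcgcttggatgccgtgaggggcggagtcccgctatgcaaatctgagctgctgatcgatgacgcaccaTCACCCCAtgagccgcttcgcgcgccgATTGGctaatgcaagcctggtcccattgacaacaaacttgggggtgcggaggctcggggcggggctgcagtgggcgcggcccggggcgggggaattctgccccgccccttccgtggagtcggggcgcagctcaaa
Both the Hmgcs1 and the Srebf2 windows held 1 match to TCACNCCA, in each case TCACCCCA, starting 137 and 162 bases before the start site. The windows of Idi1, Insig1 and Lss held no match to these letters. The same letters occurred in 3.67% of all 32851 mouse promoter windows of this length. All 5 member windows held CCAAT, with 3 matches in Hmgcs1, 2 in Idi1 and 1 each in Insig1, Srebf2 and Lss, against 33.8% of all windows with at least 1. A match describes the sequence and is not evidence of binding in these cells.

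Most of the pathway lay near the detection limit of the arrays. A probe counts as detected here where the scanner software called it well above background. Hmgcs1 was detected on 6 of 6 arrays, Idi1 and Sqle on 3 each, and Fdps and Fdft1 on 1 each, untreated 2. Insig1, Srebf2 and Lss were detected on no array. In all, 3 of 8 members (37.5%) were detected on at least 3 arrays, against 14.3% of all named genes. On all 6 arrays it was 1 of 8 (12.5%), against 6.24%. Because the members were chosen with earlier results of these data known, no conclusion is drawn from these shares. Per array, the untreated replicates 1 to 3 had 1, 5 and 1 members detected and the C5a replicates 2, 3 and 2.

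The order of the arrays by members detected was also their order by the share of all named genes detected. Of these genes, 9.82%, 19.9% and 7.33% were detected on untreated 1 to 3, and 14.1%, 18.9% and 10.2% on C5a 1 to 3. The untreated array 2 was the brightest of the 6 by this share and untreated 3 the dimmest, so both extremes lie in the same group. The unscaled 75th percentile of the probes detected everywhere was 109 units on untreated 3 and 459 units on untreated 2. The part of array brightness in the member counts was not tested. The number of arrays and this unevenness limit the precision of every value below. Without untreated 2 only Hmgcs1 would be detected on 3 or more of the remaining arrays, and the same held without C5a 2. With a loss of any other single array 2 or 3 members would be.

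**Figure D1:**
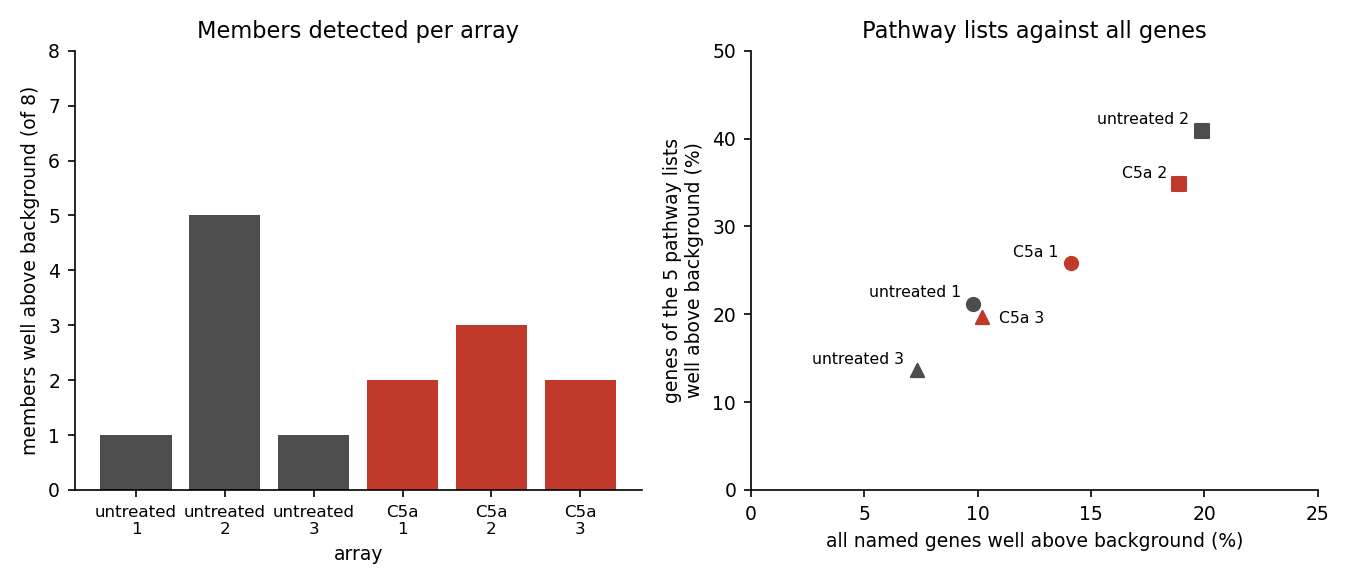
Left, number of the 8 members detected well above background on each array (1 bar per array, grey untreated, red C5a), from 1 on untreated 1 and 3 to 5 on untreated 2. Right, the percentage of genes in the 5 pathway lists detected on each array against the percentage of all named genes, with untreated 2 highest on both axes (40.9% and 19.9%) and untreated 3 lowest (13.6% and 7.33%).

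The cells' identity was checked with marker lists. Of 16 mononuclear phagocyte markers, 13 were detected, 10 of them on all 6 arrays, among them Lyz1, Lyz2, Itgax (CD11c), Cd68 and Csf1r, while Mertk and Cx3cr1 were among those detected on none. No T cell (7 genes), epithelial (8), neutrophil (5) or stromal and endothelial (7) marker was detected. Of 7 B cell markers, 2 were detected, with Cd79b on 3 arrays, and of 4 plasmacytoid dendritic cell markers, Siglech on 4, Bst2 on 5 and Tcf4 on 3. The summed level of the B cell list ran from -2.58 to -1.31 in untreated and from -2.92 to -1.57 in C5a samples, and that of the plasmacytoid list from -1.34 to -0.04 and from -1.48 to -0.01, so both overlapped between groups. Within the plasmacytoid list, Siglech was at -6.01 on C5a 1, against -2.50 to -0.44 on the other arrays. Bst2 (-2.15) and Tcf4 (-3.33) on C5a 1 lay within the range of the other arrays. The part of these cell types in the values below was not tested. In samples such as these, a difference in the share of a cell type and a difference in RNA per cell cannot be told apart.

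C5a did not change any tested member past the threshold. Levels are given as log2 signal after subtracting, per array, the 75th percentile of the probes detected on all 6 arrays, and differences are C5a minus untreated. In limma with Benjamini-Hochberg adjustment, 0 of the 3 members tested (Hmgcs1, Idi1 and Sqle) and 0 of all 4488 genes tested (0%) had an adjusted p under 0.05. All 3 members had an adjusted p of 0.999. At an unadjusted p under 0.05 there were 0 members and 106 genes (2.36%). Idi1 and Sqle each entered the test through 2 C5a arrays and 1 untreated array, so no median over the tested members is given.

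Hmgcs1, which makes the substrate of the enzyme that statins block, was the member measured with the smallest error. Its level was -2.58, -2.15 and -2.16 in untreated replicates 1 to 3, against -1.69, -1.90 and -2.01 in C5a replicates 1 to 3. All 3 C5a samples lay above all 3 untreated samples, but the gap between the nearest samples of the groups was small beside the spread within them. Groups of 3 lay apart in this way, in either direction, for 5.7% of all genes tested, and with C5a higher for 3.39%. The group means were -2.30 ± 0.25 (SD, n = 3) in untreated and -1.87 ± 0.16 (SD, n = 3) in C5a samples. The difference was 0.43 (SE 0.27, 95% interval -0.20 to 1.06), or 1.35-fold with an interval from 0.87-fold to 2.09-fold. Its SE was among the smallest 11.2% of all genes tested. By replicate number the difference was 0.89 between samples numbered 1, 0.26 between those numbered 2 and 0.14 between those numbered 3, positive in all 3. With normexp background correction it was 0.08 (SE 0.25).

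Idi1, which encodes isopentenyl diphosphate isomerase, had a larger difference with a larger error. Its level was -5.83, -4.22 and -4.36 in untreated replicates 1 to 3, against -4.73, -4.00 and -3.71 in C5a replicates 1 to 3. The groups overlapped, with untreated 1 far below the other samples and C5a 1 lowest of its own group. The probe was detected on untreated 2, C5a 2 and C5a 3, and its signal on untreated 1 was 2.88 units, below the 12.8 units of the dimmest detected probe of that array. The difference was 0.66 (SE 0.50, 95% interval -0.53 to 1.85). By replicate number it was 1.095, 0.23 and 0.65 for numbers 1, 2 and 3, positive in all 3. Both samples were detected only for number 2, so the values by number and the block fit rest partly on undetected signals. With the replicate number as a block the SE was 0.26 and limma's unadjusted p fell from 0.233 to 0.0558. The adjusted p of 0.927 did not pass. Over all genes tested, the block lowered the median SE from 0.37 to 0.26. Genes with an unadjusted limma p under 0.05 rose from 106 to 191, so lower errors with the block are not specific to Idi1. Across the alternatives the difference moved widely, from -0.14 (SE 0.35) with normexp, and 0.15 (SE 0.39) without untreated 1, to 1.02 (SE 0.84) with scaling over all probes and 1.20 (SE 0.62) with quantile normalization. The SE of 0.84 was the same for all named genes in that setting, so it is not specific to Idi1.

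Sqle, squalene epoxidase, which catalyses a rate-limiting oxygen-dependent step, differed little between the group means. Its level was -3.78, -3.97 and -4.17 in untreated replicates 1 to 3, against -3.15, -4.20 and -4.40 in C5a replicates 1 to 3. The untreated samples lay between C5a 1, the highest of the 6, and the other C5a samples. The probe was detected on untreated 2, C5a 1 and C5a 2 only. The difference was 0.06 (SE 0.38, 95% interval -0.84 to 0.96), and without C5a 1 it was -0.33 (SE 0.31). By replicate number it was 0.62, -0.23 and -0.23. For these probes, the intervals of the fit without the block ran from 0.87-fold to 2.09-fold for Hmgcs1. They ran from 0.69-fold to 3.60-fold for Idi1 and from 0.56-fold to 1.94-fold for Sqle. A p that misses the threshold does not show that levels were alike.

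The arrays lay in 2 rows of 1 slide and shared a scan. Row 1 held the 3 untreated samples and C5a 1, and row 2 held C5a 2 and 3. Row 2 had no untreated sample, so for C5a 2 and 3 the row and C5a cannot be told apart. Within row 1, C5a 1 against the mean of the 3 untreated samples gave 0.60 for Hmgcs1, 0.07 for Idi1 and 0.82 for Sqle. This has 1 array on the C5a side. A fit with the slide row as covariate gives the same differences, so it too rests on C5a 1 alone.

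**Figure D2:**
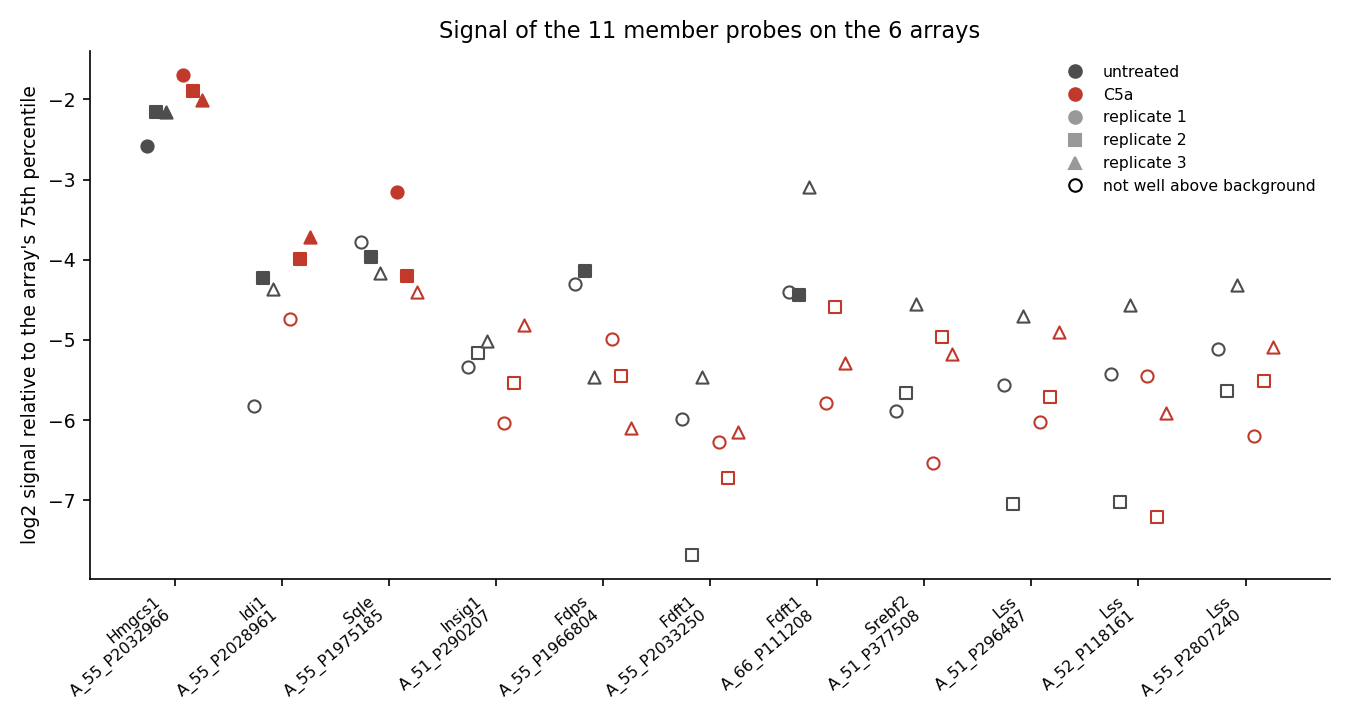
Level of each of the 11 member probes on the 6 arrays (log2 signal relative to the array's 75th percentile; 1 point per array, grey untreated, red C5a, shape by replicate number, open where the probe was not well above background). Hmgcs1 is filled on all 6 arrays with the C5a points from -2.01 to -1.69 above the untreated points from -2.58 to -2.15, whereas most points of Insig1, Fdps, Fdft1, Srebf2 and Lss are open.

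The other 5 members were not tested because too few arrays detected them. Fdft1, squalene synthase, had a pair of probes. Its brighter probe (A_66_P111208) was at -4.40, -4.45 and -3.09 in untreated replicates 1 to 3, against -5.79, -4.59 and -5.29 in C5a replicates 1 to 3. All 3 C5a samples lay below all 3 untreated samples, while detection was limited to untreated 2. No C5a array and 1 of the 3 untreated arrays detected it, and its highest level, on untreated 3, was not detected, so no fold is given. Measured means were -3.98 ± 0.77 (SD) in untreated and -5.23 ± 0.60 in C5a samples, n = 3 each. Without a filter on dim probes, 2.7% of 46522 genes had groups that lay apart, 2.22% with C5a lower. The other Fdft1 probe (A_55_P2033250), detected on no array, had means of -6.38 in both groups.

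Fdps, farnesyl diphosphate synthase, was at -4.30, -4.14 and -5.46 in untreated replicates 1 to 3, against -4.99, -5.45 and -6.10 in C5a replicates 1 to 3. The groups overlapped through untreated 3, and no fold is given, since no C5a array detected it. Of the regulators, Srebf2 had signals from 2.74 to 12.0 units over the 6 arrays and Insig1 from 3.37 to 12.8, before scaling. The 3 probes of Lss had signals from 2.55 to 9.21 units. The dimmest detected probe of each array had 10.5 to 12.8 units. None of these probes was detected on any array, and their scaled levels have no reliable order: on that scale the dimmest detected probe stood at -5.37 on untreated 2 but at -3.31 on untreated 3.

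With the filter on dim probes removed, limma (Benjamini-Hochberg adjustment) called 47 of 46522 genes (0.101%) and 0 of the 8 members. Their adjusted p was 0.991 or 0.992. The differences of the 5 members below the filter were -0.29 for Insig1, -0.88 for Fdps, -1.25 for Fdft1, -0.20 for Srebf2 and -0.58 for Lss, each with an SE of 0.77. This SE was the same for all 8 members, so it is not specific to any of them. The median over all genes in that fit was -0.41, so the scaled levels of dim probes were lower on the C5a arrays as a whole. Median signals of probes detected on no array were 2.97 to 3.20 units on the untreated arrays and 2.65 to 3.03 on the C5a arrays before scaling.

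Further genes of the pathway were read from 5 lists. Of their 66 genes on the array, 17 (25.8%) were detected on at least 3 arrays and 7 on all 6, and 37 on none. Limma with Benjamini-Hochberg adjustment called 0 of the 17, 7 with a difference above 0 and 10 below, with a median of -0.01. At an unadjusted limma p under 0.05 there was 1 of the 17, Npc1, against 2.36% of all genes tested. Among 15 other sterol synthesis enzymes, 14 were on the array and 5 were tested, 3 with a difference above 0 and 2 below, with a median of 0.21. They included Pmvk, which acts on mevalonate phosphate, and Msmo1, Sc5d and Ebp, which act on sterols after lanosterol, named after their values were seen. None of the 5 was detected on all 6 arrays. Of 12 genes that control SREBP, 2 were tested, Srebf1 among them, both with a difference below 0.

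Among genes of uptake and intracellular transport, 6 of 16 were tested, and the differences ran from -0.71 to 0.54 with a median of -0.01. Npc1, which carries cholesterol out of lysosomes, was at -2.80, -3.05 and -2.59 in untreated replicates 1 to 3, against -3.20, -3.92 and -3.46 in C5a replicates 1 to 3. All its C5a samples lay below all untreated ones, while groups lay apart, in either direction, for 5.7% of all genes tested. The difference of Npc1 was -0.71 (SE 0.30), with an adjusted p of 0.999 in limma. Npc2, its soluble partner, differed by 0.06 (SE 0.26) and Lipa, the lysosomal acid lipase that frees cholesterol from its esters, by -0.11 (SE 0.33).

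**Figure D3:**
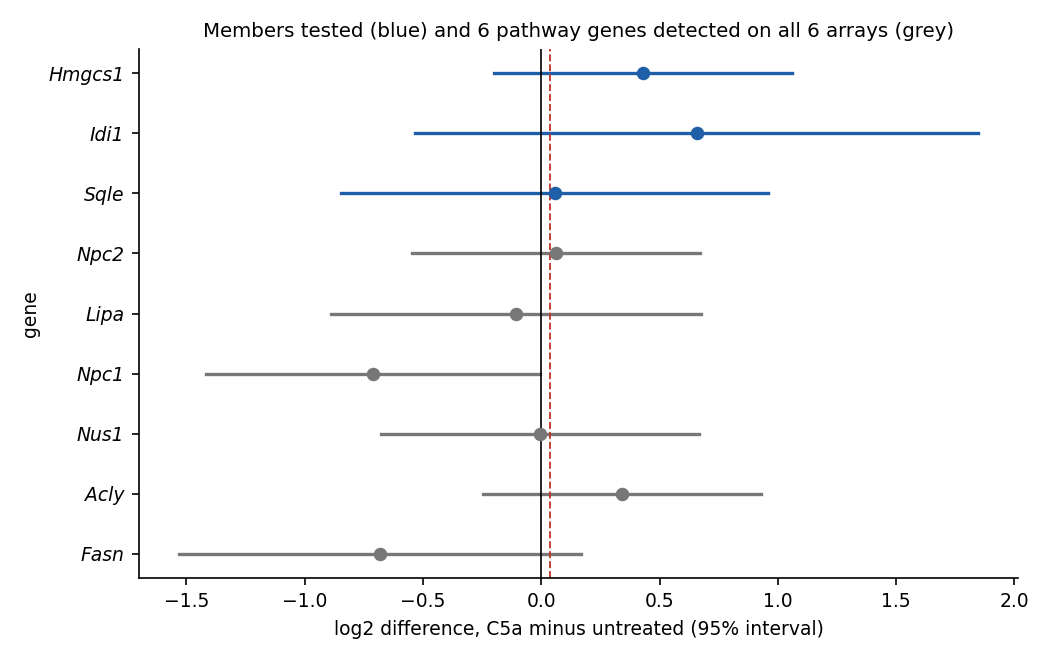
Log2 difference, C5a minus untreated, with its 95% interval from limma for the 3 tested members (blue) and for 6 pathway genes detected on all 6 arrays (grey); the dashed line is the median of all genes tested, 0.04. The intervals of Hmgcs1, Idi1 and Sqle span 0, and that of Npc1 ends just below it.

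The isoprenoid branch, which turns farnesyl diphosphate into lipid anchors and carriers, had 2 of 14 genes tested, with differences from -0.32 to -0.01. Nus1, a subunit of the enzyme that makes dolichol precursors, was detected on all 6 arrays and differed by -0.01 (SE 0.29). In fatty acid synthesis, which SREBP proteins also drive, 2 of 10 genes were tested. Acly, which supplies cytosolic acetyl-CoA to both pathways, was at -2.17, -2.03 and -2.36 in untreated replicates 1 to 3, against -1.79, -1.79 and -1.96 in C5a replicates 1 to 3. The C5a samples all lay above the untreated ones, as for 3.39% of all genes tested, and the difference was 0.34 (SE 0.25). Fasn, fatty acid synthase, was at -2.98, -2.20 and -1.87 in untreated replicates 1 to 3, against -3.31, -2.75 and -3.04 in C5a replicates 1 to 3. The groups overlapped through untreated 1, and the difference was -0.68 (SE 0.36). Neither passed the test (adjusted p of 0.999 for both in limma).

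Across the 6 arrays, the tested genes whose level followed Hmgcs1 most closely were Pafah1b1, a regulator of the dynein motor (Pearson r = 0.982), Prpf6, a splicing factor (0.979), and Prmt1, an arginine methyltransferase (0.979). Idi1 followed Hmgcs1 with r = 0.617, and 11% of all genes tested had a higher r with it. For Sqle r was 0.249, with 35.7% of genes higher. These values describe 6 arrays that share their scaling and differ in brightness, and Pafah1b1, Prpf6 and Prmt1 were detected on 3, 3 and 4 of them.

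**Figure D4:**
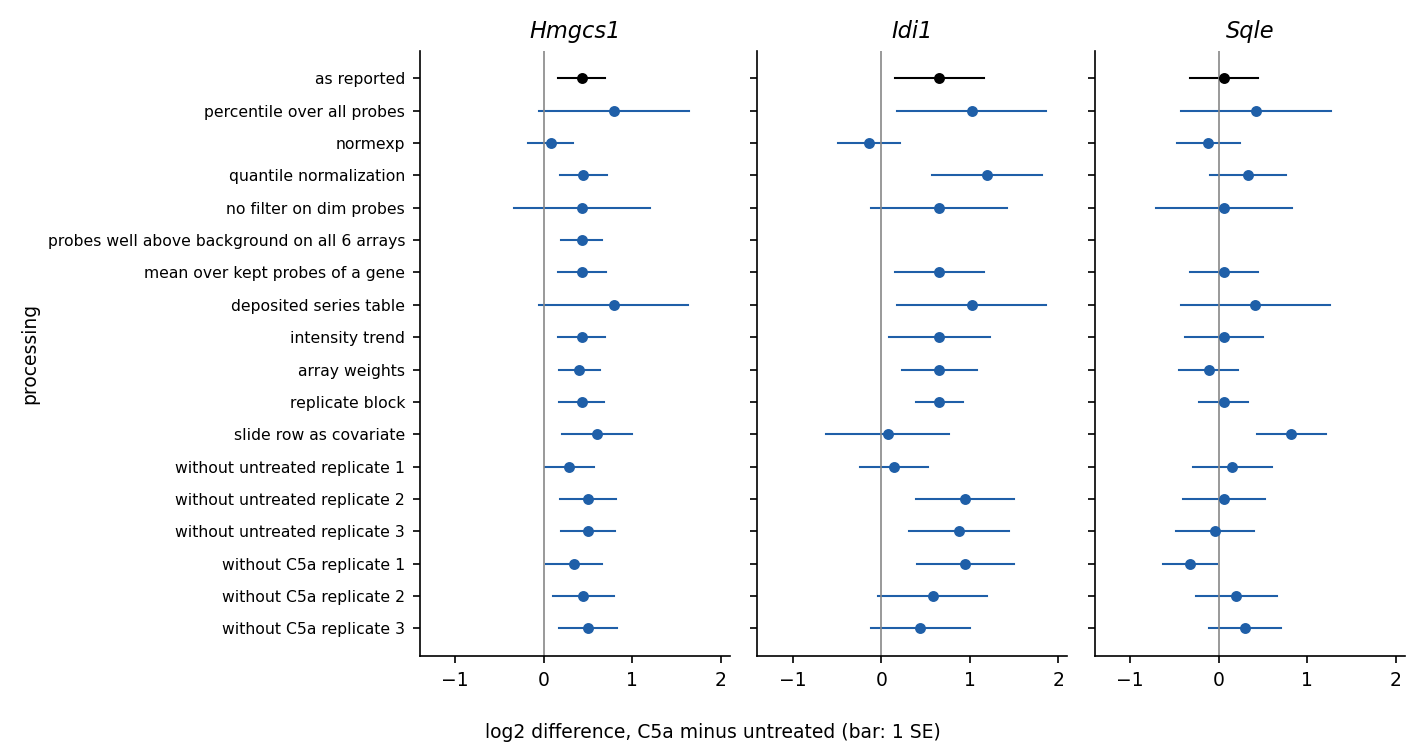
Log2 difference of Hmgcs1, Idi1 and Sqle (C5a minus untreated) under each processing tried, 1 row per setting, with bars of 1 SE and the value as reported in black. Hmgcs1 stays above 0 in each row, from 0.08 with normexp to 0.79, Idi1 runs from -0.14 with normexp to 1.20 with quantile normalization, and Sqle lies on both sides of 0.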

How the data were processed

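RNA of 6 samples was hybridised to 1-colour (Cy3) Agilent arrays, 1 per sample. Per the file headers, Feature Extraction 10.10.1.1 gave each spot's intensity, background-subtracted within the array and unscaled between arrays, and flags (other values, 0 or 1), for example for spots well above background. The deposited series table holds log2 values. Their differences between arrays all (100%) lay within 0.02 of those of the log2 signal after scaling each array to its 75th percentile of all probes, so scale and direction are known and the per-probe baseline is not.

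Control spots were left out. Outlier-marked spots (112 to 138 marked per array) were left out unless all spots of their probe were marked. No spot was saturated, and spots of a probe were averaged. RefSeq accessions, without versions, named 32994 of 56605 probes through a GRCm38.p6 table. Of these 56605, 4958 were well above background on at least 3 arrays and were kept. Values were scaled to the 75th percentile over 2371 probes detected on all 6 arrays. The brightest kept probe per gene was fitted in limma 3.58.1 (R 4.3.3), which was also run on simulated data. The normexp alternative (offset 50) used median signals, since the files give no mean signal. Same-numbered samples deviated together (correlations 0.21, 0.27 and 0.38), but no label says that the numbers pair samples. In both groups number 2 was brightest and number 3 dimmest by the unscaled 75th percentile, and the part of brightness in these correlations was not tested. The reported fit had no replicate block, and a fit with the block was run as an alternative. The members and lists were chosen with earlier results of these data known. Named genes are the members and the list genes detected on all 6 arrays; some list genes are counted but not reported here by name.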

Additional observations from a re-analysis of the deposited data

How the results depend on the processing

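Under 12 kinds of alternative, 0 members and 0 genes of the pathway lists passed in any setting. The count over all genes was 0 in each setting except without the filter on dim probes, where it was 47 (9 higher, 38 lower). Of the recomputed differences of named genes, 147 kept their sign and 21 turned. Those that turned were, with all-probe scaling, Lipa (0.25) and Nus1 (0.36), with the deposited series table Lipa (0.25) and Nus1 (0.36), with normexp Idi1 (-0.14), Sqle (-0.12) and Acly (-0.0367), with quantile normalization Nus1 (0.0221), with array weights Sqle (-0.12) and Npc2 (-0.0406), and with the slide row Npc2 (-0.0125). Leaving out 1 replicate, Sqle ran from -0.33 to 0.30, Lipa from -0.33 to 0.10, Npc2 from -0.0545 to 0.15 and Nus1 from -0.18 to 0.10, while Hmgcs1 ran from 0.29 to 0.50 and Idi1 from 0.15 to 0.95. Why these signs turned was not tested. The slide row setting sets C5a 1 alone against the untreated samples. All-probe scaling moved the median of all genes from 0.04 to 0.40 and normexp to -0.12. Relative to it, Hmgcs1 was at 0.39, 0.39 and 0.20 and Idi1 at 0.62, 0.62 and -0.02 in the reported, all-probe and normexp values. The reported and all-probe values are equal by construction, since the scalings differ by a constant per array. The deposited series table holds the all-probe scaling, so it is not a separate check. The replicate block changed no call (0 genes). It lowered the SE of Idi1 from 0.50 to 0.26 (limma adjusted p = 0.927) and that of Hmgcs1 from 0.27 to 0.25. The median SE over all genes tested fell from 0.37 to 0.26. Of all settings, the lowest limma adjusted p of any named gene was 0.927.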
